A study of Mus musculus with 4 samples.

Results

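Axon guidance genes encode the secreted and membrane-bound cues that steer growing axons and the receptors that read them. The members were chosen by gene symbol: class 3 to 7 semaphorins, their plexin receptors, ephrins and Eph receptors, Slits and Robos, netrins with their receptors Dcc and Unc5, and the Kirrel adhesion molecules. The pattern found 74 genes, measured by 122 probes, of 45604 genes and 56605 probes in all. Of these, 3 matched by name alone and are no guidance ligands or receptors (Plxna4os1, an antisense RNA; Unc50; and Unc5cl), and 0 of the 3 passed the test below. RNA from septal nasal mucosa of C57BL/6 mice labelled male was hybridized to one-colour Agilent arrays, 2 arrays for young adult mice of 8 weeks and 2 for aged mice of 16 months. Each array held RNA pooled from 5 mice, so that the spread between arrays is that between pools, and mouse to mouse variation was not measured. Whether the 2 pools of an age held different mice is not stated in the labels. The study lists fewer mice of each age for gene analyses than separate pools of this size would need. The pools of an age may thus have shared mice. If they shared mice, the errors and FDR values below would measure mainly technical spread. The labels also carry a description and a tag on silica aspiration and lung cells, which go against the tissue and title they give; these were not used.

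Olfactory receptor neurons (ORNs) are replaced throughout life, and each new neuron must send its axon to the olfactory bulb and find the glomerulus of its receptor. Semaphorin and Slit gradients are known to place axons along the axes of the bulb, with neuropilin and plexin or Robo receptors on the axon. Local sorting into glomeruli is known to use activity-linked adhesion by Kirrel2 and Kirrel3 and repulsion between ephrin-A5 and EphA5. Several of these genes also act outside neurons, in blood vessels, bone and connective tissue, and the mucosa contains all of these.

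A level is the quantile-normalized, background-corrected intensity of a gene, averaged over its probes, and levels are compared between arrays and not between genes. A fold change is aged minus young adult on the log2 scale. A gene was called changed when limma gave P below 0.05 and a Benjamini-Hochberg false discovery rate (FDR) below 0.25 over all genes tested. These are the study's thresholds for significance. For its differentially expressed genes the study also required a mean level of at least 100 and a change of at least 1.5-fold. Of the 74 members, 66 were above background on all 4 arrays, 6 on some, and 2, Unc5d and Plxna4os1, on none. The share of probes well above background ranged from 63.1% to 76.8% per array, no spot was saturated, and the correlation between arrays was 0.987 within each age and 0.982 to 0.989 between ages. The labels give male mice, while Xist had levels of 612 to 645 on the 4 arrays and 0 of 7 probes to 4 Y-linked genes were above background.

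In aged mucosa 11 of the 74 members passed the test, 5 higher and 6 lower. The genes that rose were Kirrel2, Epha5, Sema7a, Epha7 and Plxna3, and those that fell were Sema4g, Epha4, Plxnd1, Epha3, Epha2 and Robo4. Of all genes, 1.65% were called higher and 2.33% lower; for the members the share called in either direction was 14.9%, against 3.98% of all genes and 5.41% of genes with a mean level of at least 100 (2.13% higher and 3.28% lower). With these further limits of the study, a mean level of at least 100 and a change of at least 1.5-fold, fewer members remained. Then 3 members rose (Kirrel2, Epha5 and Sema7a) and 3 fell (Sema4g, Epha4 and Plxnd1), where 0.814% and 1.15% of all genes did. The median over the members was -0.087, and that over all genes 0.009. Both aged arrays lay above both young adult arrays for 13 members and below them for 30, while 24.2% and 21.8% of all genes did so; the arrays of the ages were separated for 43 of the 74 members (58.1%), for 46% of all genes and for 57.8% of genes with a mean level of at least 100, so that the share of the members was near that of expressed genes. In all, 47 of the 74 members were lower in aged mucosa, where 48.5% of all genes were. At P below 0.05 without the FDR, 6 members were higher and 15 lower, against 6.05% and 7.08% of all genes.

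With 2 arrays a group, the FDR values all lay near the threshold, between 0.178 and 0.240 for the called members. When any one of the 4 arrays was left out, 0 members stayed called, and the smallest FDR of any member was then 0.440 without the first young adult array, 0.458 without the second, 0.677 without the first aged array and 0.408 without the second. With the replicate number as a block, a number that for the first array of each age also marks a shared slide, 0 members stayed called and the smallest FDR was 0.433. The direction of all 11 called members was the same in each of these fits and within the slide that carried the first array of each age. This adds no support, since their arrays do not overlap between ages. Leaving out an array or taking the slide alone could hardly turn a sign, and the block left the fold changes as they were. The smallest p that an exact permutation of 2 against 2 arrays can give is 0.333.

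**Figure D1:**
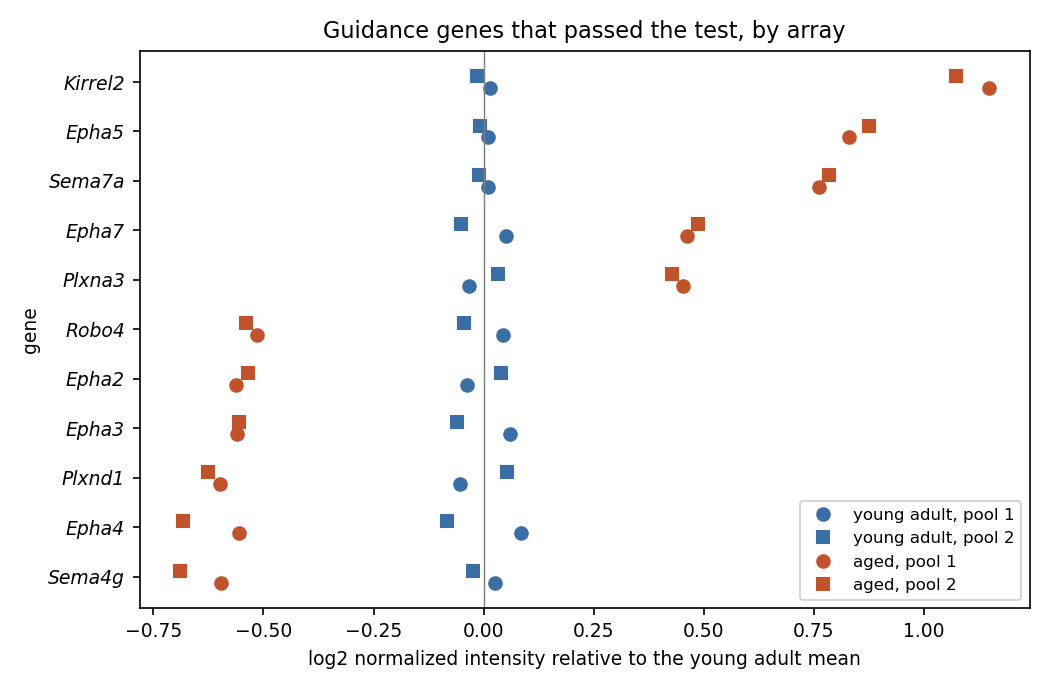
Level of each called gene on each array, as log2 normalized intensity relative to the mean of the 2 young adult arrays; circles and squares are the first and second pool of each age. The aged arrays of Kirrel2 lie about 1.11 above the young adult mean and those of Sema4g lie 0.64 below it, and for all 11 genes the arrays of the 2 ages do not overlap.

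Kirrel2, a homophilic adhesion molecule of ORN axons, had the largest change of the members. Its level was 2336 and 2289 in young adult and 5125 and 4862 in aged mucosa. Both aged arrays lay above both young adult arrays. The fold change was 1.11 ± 0.080 (SE, n = 2 arrays an age, 2.16-fold, FDR 0.178), and its probes gave 1.15 and 1.07. Within the shared slide the difference was 1.13.

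Kirrel3, the relative of Kirrel2 that is known to be expressed in a complementary set of ORNs, did not pass the test. Its level was 448 and 498 in young adult and 432 and 465 in aged mucosa, and the ages overlapped. The fold change was -0.07 (95% interval -0.38 to 0.23, FDR 0.789), which leaves room for a fall but not for a rise of the size of that of Kirrel2. Kirrel, also named Kirrel1, changed by -0.13 (-0.54 to 0.27), a mean over probes of unlike brightness. The bright probe read 5905 and 5406 in young adult and 4674 and 4312 in aged mucosa (-0.33). The other, not above background on every array, gave 0.06.

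Epha5, the receptor of the repulsive pair, was 1065 and 1051 in young adult and 1880 and 1940 in aged mucosa. The ages were well separated, and the fold change was 0.85 ± 0.076 (SE, 1.81-fold, FDR 0.178). All 3 of its probes were higher, by 0.93, 0.93 and 0.70. Its ligand gene Efna5 was 2377 and 2310 in young adult and 2034 and 2094 in aged mucosa. Both aged arrays were lower, but the change of -0.18 (95% interval -0.41 to 0.05, FDR 0.453) did not pass the test. This change is a mean over probes of unlike brightness. The bright probes, at 12571 and 6807 on the first young adult array, gave -0.26 and -0.27. A dim probe, at 157 on that array, gave -0.02.

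Kirrel2 and Epha5 had the largest rises of the members and are set here beside genes that did not pass the test. A gap within each pair follows from that choice and is no separate result. Relative to the young adult mean, the log2 change of Kirrel2 exceeded that of Kirrel3 by 1.28 and 1.09 on the aged arrays, 1.19 on average. The change of Epha5 exceeded that of Efna5 by 1.03 and 1.04, which is 1.04 on average. In both pairs the 2 aged arrays lay above both young adult arrays, with p = 0.333 by the two-sided exact permutation test. That is the smallest it can give here, so the test cannot decide. The same was computed for Sema7a with Plxnc1 (0.87 on average) and for Plxna3 with Sema3f (0.75), with the same p by this test.

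**Figure D2:**
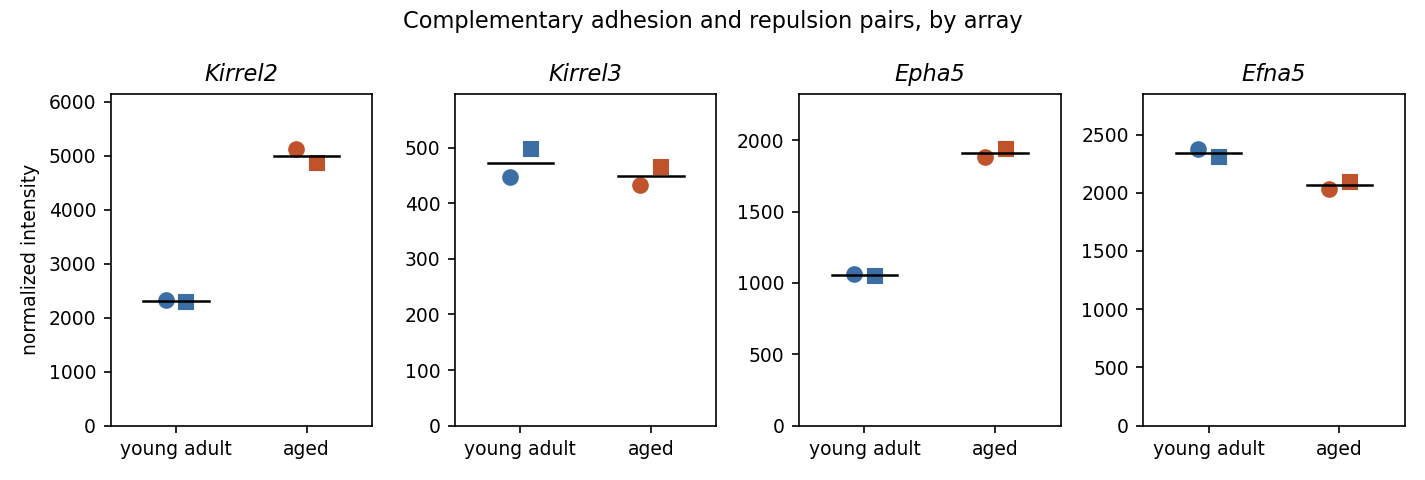
Normalized intensity (linear axis from 0, a separate scale for each gene) of Kirrel2, Kirrel3, Epha5 and Efna5 on the 2 young adult (blue) and 2 aged (orange) arrays; circles and squares are the first and second pool and bars are means. Kirrel2 and Epha5 are higher in both aged arrays, Kirrel3 overlaps between ages, and Efna5 is lower in both aged arrays by an amount that did not pass the test.

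Among the semaphorins, Sema7a rose. It encodes a membrane-anchored semaphorin that ORN axons are known to carry into the bulb, where it acts on plexin-C1 of the target neurons. Its level was 11557 and 11408 in young adult and 19466 and 19771 in aged mucosa, which is 0.77 ± 0.074 (SE, 1.71-fold, FDR 0.183). The arrays held mucosa and not bulb, so the receptor gene in the target neurons was not measured. In mucosa this gene, Plxnc1, was 111 and 101 in young adult and 125 and 78.8 in aged mice. These arrays overlapped, and the interval of its change was wide (-0.09, 95% interval -0.90 to 0.72). This level is a mean over probes of unlike brightness. The brighter probe, above background on every array, read 204 and 211 in young adult and 165 and 172 in aged mucosa (-0.30). The other, not above background on every array, gave 0.12.

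Plxna3, a receptor subunit for class 3 semaphorins on olfactory axons, was 2669 and 2793 in young adult and 3736 and 3673 in aged mucosa. Both aged arrays were higher, and the fold change was 0.44 ± 0.078 (SE, FDR 0.240). Sema3f, whose protein signals through neuropilin-2 and plexin-A3, was 2594 and 2609 in young adult and 2085 and 2105 in aged mucosa, a change of -0.31 (FDR 0.291) that did not pass. Of the co-receptors, Nrp2 changed by -0.03 (FDR 0.897) and Nrp1 by -0.28 (FDR 0.501). Of the other plexins tied to olfactory axons, Plxna1 changed by 0.12 (FDR 0.595).

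Epha7, a receptor for ephrin-A ligands, was 247 and 230 in young adult and 328 and 334 in aged mucosa. Its arrays did not overlap, and the change was 0.47 ± 0.084 (SE, FDR 0.240). Its 4 probes differed in size: those to one RefSeq transcript gave 0.66, 0.43 and 0.61, and the probe to another transcript gave 0.20. That last probe was the brightest, at 411 and 414 in young adult and 457 and 490 in aged mucosa. Alone it did not pass the test (FDR 0.445 over all probes).

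The regions before the transcription starts of the 5 genes that rose are shown. These genes are grouped only because each was called higher, and whether they share regulation was not tested. RefSeq windows of 250 bases before the start, on the GRCm38.p6 assembly, were available for 62 of the 74 members, among them all of the genes that rose or fell; each is written 5′ to 3′ on the strand of its gene, and for Epha7 the first of 2 overlapping windows is given. Both strands were searched for TAATTA, a core of homeodomain sites such as those of Lhx2, for CCCNNGGG, the core of the site of the EBF (Olf-1) factors of ORNs, and for TGACGTCA, the cAMP response element. Capitals mark a match.
Kirrel2 (chr7:30457516-30457765, minus strand): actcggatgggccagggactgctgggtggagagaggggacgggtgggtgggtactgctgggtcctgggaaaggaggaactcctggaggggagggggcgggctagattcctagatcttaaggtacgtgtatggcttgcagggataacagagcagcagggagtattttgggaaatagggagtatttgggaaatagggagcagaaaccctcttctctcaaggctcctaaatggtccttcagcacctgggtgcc
Epha5 (chr5:84417383-84417632, minus strand): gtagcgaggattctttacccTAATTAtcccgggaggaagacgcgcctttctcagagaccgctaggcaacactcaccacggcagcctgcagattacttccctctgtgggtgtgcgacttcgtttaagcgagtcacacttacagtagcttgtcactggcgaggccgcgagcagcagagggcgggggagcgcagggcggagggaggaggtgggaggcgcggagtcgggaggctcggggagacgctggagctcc
Sema7a (chr9:57939862-57940111, plus strand): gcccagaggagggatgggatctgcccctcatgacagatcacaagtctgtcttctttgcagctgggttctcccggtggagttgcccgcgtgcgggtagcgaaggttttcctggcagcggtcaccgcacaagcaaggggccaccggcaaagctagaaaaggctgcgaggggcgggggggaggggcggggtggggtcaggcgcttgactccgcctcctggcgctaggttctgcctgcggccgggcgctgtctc
Plxna3 (chrX:74328816-74329065, plus strand): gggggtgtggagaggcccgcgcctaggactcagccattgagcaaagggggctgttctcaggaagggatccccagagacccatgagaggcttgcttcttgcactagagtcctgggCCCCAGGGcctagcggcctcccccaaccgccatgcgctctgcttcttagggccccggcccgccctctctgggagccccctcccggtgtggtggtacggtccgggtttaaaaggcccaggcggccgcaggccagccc
Epha7 (chr4:28812881-28813130, plus strand): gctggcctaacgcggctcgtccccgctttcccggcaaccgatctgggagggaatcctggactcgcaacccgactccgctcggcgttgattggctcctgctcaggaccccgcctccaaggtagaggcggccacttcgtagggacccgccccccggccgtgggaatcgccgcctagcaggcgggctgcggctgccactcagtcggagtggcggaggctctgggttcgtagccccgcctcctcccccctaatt
These 5 windows held 1 match to TAATTA, in Epha5, and 1 to CCCNNGGG, in Plxna3. Among all 27025 genes with a window, 5.65% held TAATTA, 13.4% CCCNNGGG and 1.77% TGACGTCA; of the 62 members, 4.84%, 25.8% and 1.61% did. No window of a gene that fell held CCCNNGGG or TAATTA, and 1, that of Epha2, held the cAMP response element. The windows of Kirrel2, Sema7a and Epha7 held none of these letters.

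The 6 genes that fell were spread over semaphorins, plexins, Eph receptors and Robos. Robo4, the Robo of endothelial cells, was 4248 and 3997 in young adult and 2883 and 2834 in aged mucosa. Both aged arrays were lower, by 0.53 ± 0.082 (SE, 1.44-fold, FDR 0.217). Plxnd1, the plexin of endothelial cells and receptor for semaphorin 3E, was 1443 and 1555 in young adult and 989 and 970 in aged mucosa. It decreased by 0.61 ± 0.085 (SE, 1.53-fold, FDR 0.208), and the ages did not overlap. The gene for its ligand, Sema3e, was 315 and 321 in young adult and 401 and 392 in aged mucosa, a change of 0.32 in the other direction that did not pass the test (FDR 0.290).

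Markers of endothelial cells were lower on the same arrays as Robo4 and Plxnd1. All 9 markers of the list were above background on all 4 arrays. All 9 were lower in aged mucosa, 5 of them called (2.33% of all genes were called lower), with a median of -0.59. Their summed level was 16515 and 16380 in young adult and 10684 and 11067 in aged mucosa. The part of this in the change of Robo4 and Plxnd1 was not tested. In bulk RNA, fewer cells of a type and less RNA per cell cannot be told apart.

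Of the EphA receptor genes 3 fell. Epha2, known from epithelial cells and as the receptor for ephrin-A1, was 1682 and 1775 in young adult and 1170 and 1192 in aged mucosa, a change of -0.55 (FDR 0.210). Epha4, a receptor that binds ephrins of both classes, was 565 and 503 against 362 and 332 (-0.62, FDR 0.239). Epha3, a receptor for ephrin-A5, was 128 and 117 against 83.0 and 83.2 (-0.56, FDR 0.219). Of all genes 3.98% passed the test, and of those with a mean level of at least 100 it was 5.41%. With Epha5 and Epha7, 5 of the 9 EphA genes (55.6%) passed it, in both directions. Of the others, Epha1 changed by -0.01 (95% interval -0.25 to 0.24), and Epha8 (0.29, FDR 0.385), Epha6 (0.01) and Epha10 (-0.0012) were above background on only some arrays.

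Of the 5 EphB genes 0 passed the test, with 1 at P below 0.05, Ephb4 (-0.31, FDR 0.291). Ephb4 was 715 and 714 in young adult and 571 and 581 in aged mucosa, and Ephb1 was 1366 and 1433 against 1616 and 1677 (0.23, FDR 0.391). Of the 8 ephrin genes 0 passed, with 2 at P below 0.05, both lower: Efnb1 (-0.31, FDR 0.377) and Efnb3 (-0.29, FDR 0.375). All 3 ephrin-B genes were lower on both aged arrays, with a median of -0.29. The largest rise of an ephrin was that of Efna2, by 0.19 (FDR 0.549).

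Sema4g, a transmembrane semaphorin that binds plexin-B2, had the largest fall of the members. Its level was 1008 and 973 in young adult and 655 and 614 in aged mucosa, a decrease by 0.64 ± 0.084 (SE, 1.56-fold, FDR 0.201). The gene for plexin-B2 changed by -0.12 (95% interval -0.38 to 0.13). The other 10 genes of semaphorin classes 4 to 7 did not pass the test and lay between -0.18, for Sema6d, and 0.34, for Sema4f.

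The secreted class 3 semaphorins act as repellents for many olfactory axons. Of these 7 genes 0 passed the test, but 4 were at P below 0.05, of which Sema3c (-0.43, FDR 0.282), Sema3f and Sema3b (-0.30, FDR 0.309) were lower and Sema3e was higher. Sema3a, which is known to set the order of axons in the olfactory nerve, was 303 and 304 in young adult and 223 and 268 in aged mucosa, both lower (-0.31, FDR 0.445). The median of the class was -0.30.

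Slits repel axons that carry Robo1 or Robo2, and the Slit1, Slit3 and Robo2 genes are known to place ORN axons along the dorsal to ventral axis of the bulb. Of the 3 Slit genes 0 passed the test and 0 were at P below 0.05. Slit1 was 1570 and 1611 in young adult and 1393 and 1435 in aged mucosa (-0.17, FDR 0.480), and Slit3 changed by -0.23 (FDR 0.458). Robo1 overlapped between ages, with 456 and 539 against 455 and 563 (0.03, FDR 0.953). Robo2 changed by -0.15 (FDR 0.616) and Robo3 by 0.36 (FDR 0.512).

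Netrins attract axons through Dcc and repel them through Unc5 receptors. Of the 6 netrin genes 0 passed, with 2 at P below 0.05, both lower: Ntn5 (-0.64, FDR 0.318) and Ntn3 (-0.37, FDR 0.318). Ntn5 was 174 and 151 in young adult and 92.1 and 118 in aged mucosa, and its change was as large as that of Sema4g with a wider spread between arrays. Ntn1 overlapped between ages, with 856 and 917 against 780 and 881 (-0.10, FDR 0.743). The membrane-anchored Ntng1 changed by 0.10, a mean over a probe above background and a probe that was not above it on any array. The probe above background read 154 and 146 in young adult and 217 and 180 in aged mucosa (0.40). Of the 5 receptor genes 0 passed, with 1 at P below 0.05, Unc5a (-0.39, FDR 0.351), at 1397 and 1244 against 1068 and 944. Dcc changed by 0.14 (FDR 0.658), a mean over 4 probes of which 3 were not above background; the only probe above background gave -0.088.

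By side, 1 of the 36 ligand genes was called higher and 1 lower (5.56%), with a median of -0.12. Of the 32 receptor genes 3 were called higher and 5 lower (25%), with a median of -0.01. The share called was 3.98% of all genes and 5.41% of those with a mean level of at least 100. The share of the ligands was near the latter. Of the ligand genes 25 (69.4%) were lower and of the receptor genes 18 (56.25%), where 48.5% of all genes were.

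**Figure D3:**
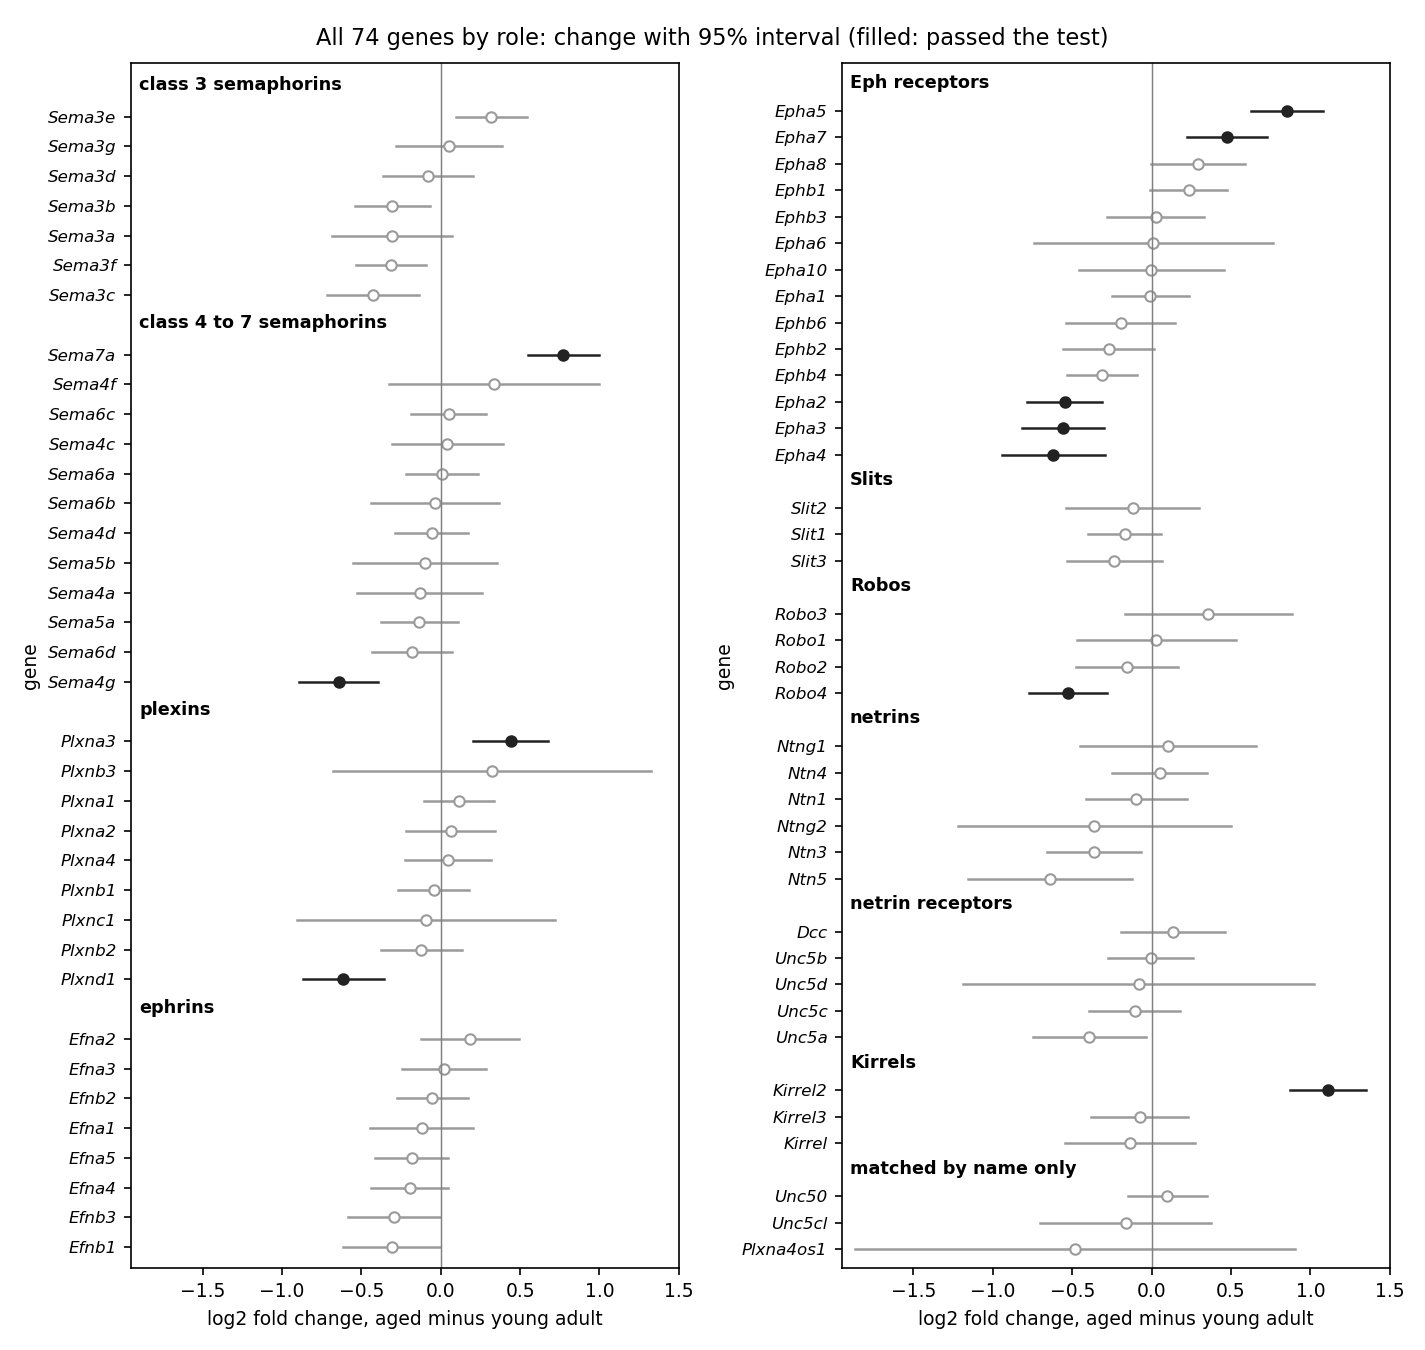
Change of each of the 74 genes (log2 fold change, aged minus young adult; points) with its 95% interval from limma (bars), grouped by role; filled black points passed the test. The 5 genes that rose lie in 4 of the groups, EphA genes lie at both ends of theirs, and the intervals of dim genes such as Unc5d and Plxna4os1 are the widest.

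The proteins that work with these ligands and receptors were looked at as a list of 67 genes, 23 co-receptors and adhesion partners and 44 effectors inside the cell, and all were measured. Of these, 3 were called higher and 3 lower, with a median of -0.05. This was 8.96%, against 3.98% of all genes and 5.41% of genes with a mean level of at least 100. Such a level was reached by 63 of the 67 partners. Nphs1, which encodes nephrin, a binding partner of Kirrel proteins in the kidney filter, rose from 388 and 428 to 608 and 639 (0.61, FDR 0.219). Ngef, the exchange factor ephexin that Eph receptors regulate, rose from 3655 and 3564 to 5189 and 5520 (0.57, FDR 0.210). The genes that fell were Fes, a kinase of the semaphorin 3A pathway (-0.58, FDR 0.203), the contactin Cntn1 (-0.52, FDR 0.246) and Dpysl3, a collapsin response mediator gene (-0.40, FDR 0.247). The other 61 did not pass the test.

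Cell type markers on the same arrays gave the setting of these changes. All 11 markers of mature ORNs were above background on every array and higher in aged mucosa, with a median of 0.15 and 1 called, Stoml3; their summed level was 584080 and 575157 in young adult and 637778 and 645508 in aged mucosa. The markers of this list rose by 0.05 to 0.43, the highest being Stoml3. The members called higher rose by 1.11 (Kirrel2), 0.85 (Epha5), 0.77 (Sema7a), 0.47 (Epha7) and 0.44 (Plxna3). These members were picked because they passed the test, so their sizes are no fair measure beside a marker list. Of 8 markers of immature ORNs 0 were called and 6 were lower (median -0.22). Of all genes 2.33% were called lower. Medians were negative for markers of fibroblasts (6 of 8 called lower, -0.97), bone and cartilage (6 of 9, -0.94), macrophages (4 of 8, -0.51) and ensheathing and Schwann cells (5 of 9, -0.50). Of the bone and cartilage markers 2 were higher and not called, Col9a1 (0.42) and Sost (0.80), which was above background on no array. Of 7 markers of sustentacular cells and Bowman glands 0 were called (median 0.13). Of 8 markers of basal and progenitor cells 2 were called lower (-0.30), and of 8 of smooth muscle and pericytes 2 (-0.16). The part of these in the change of each guidance gene was not tested.

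**Figure D4:**
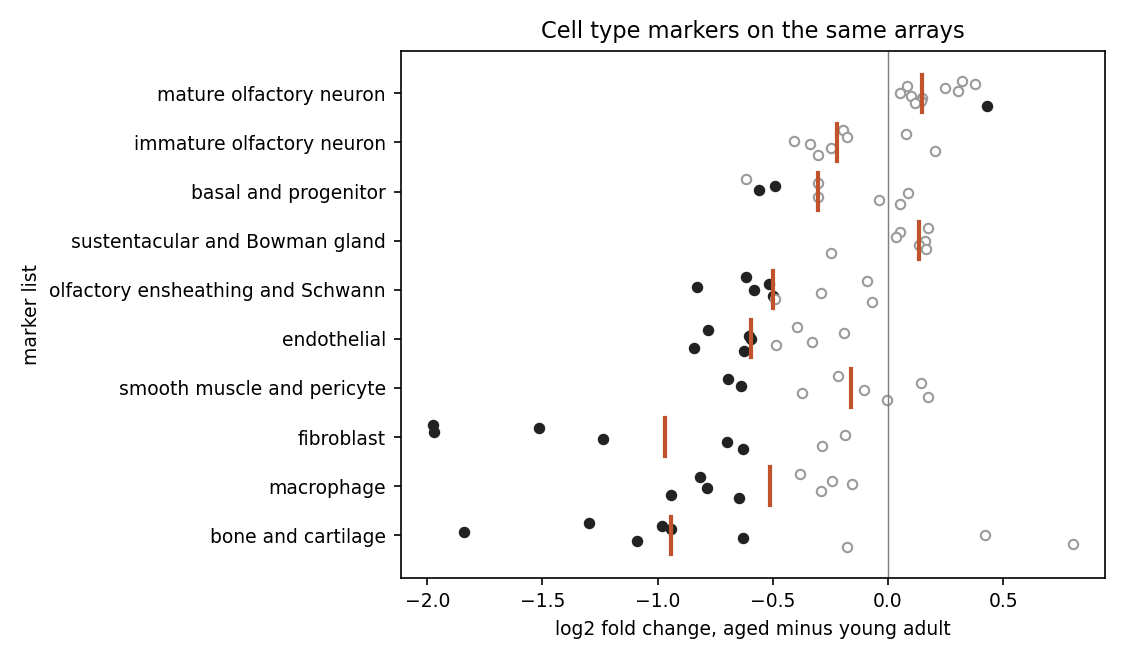
Change of each marker gene (log2 fold change, aged minus young adult; points, filled where called) by marker list, with the median of each list as an orange bar. The markers of mature ORNs lie between 0.05 and 0.43, while those of endothelial cells lie between -0.84 and -0.19.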

How the data were processed

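The authors isolated RNA from septal nasal mucosa, pooled it from 5 mice per array and hybridized it to Agilent one-colour arrays. They deposited spot intensity values and flags from Feature Extraction 11.0.1.1, not normalized between arrays; the deposited value table equalled the processed intensity for all 62976 spots. Here the median spot intensity was background-corrected by normexp (offset 0, limma 3.58.1, R 4.3.3). Control and outlier spots were left out, spots of a probe were averaged, arrays were quantile normalized, and log2 values were averaged over the probes of each gene. Ages were compared with lmFit and eBayes; the script was tested on simulated data. Intervals are 95% intervals from limma. Symbols came from a RefSeq table of GRCm38.p6, which named 32994 of 56605 probes; the rest kept their design identifiers. The members, gene lists and tests were chosen with earlier results of these data known. Named are the called members, the largest rise and fall of each role group, members known for sorting olfactory axons, members whose probes disagree, Nrp1, Nrp2 and called partners; other members named beside these, and Stoml3, were chosen after their values were seen. The values of 1 called partner are not reported here. The number of arrays limits precision.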

Additional observations from a re-analysis of the deposited data

How the results depend on the processing

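All 11 called members kept their direction under all 16 alternatives. With the block, an array left out or the shared slide alone, this was all but fixed in advance, since their ages do not overlap. All 11 were also called with a normexp offset of 16 or 50, no background correction, quantile-normalized processed signal, flagged spots kept, probes above background only, or a variance trend; 10 were with processed signal scaled to the 75th percentile, 9 with the most intense probe and 8 with 75th percentile scaling. With the replicate number as a block, or with any 1 array left out, members, members past 1.5-fold and partners called were 0 in each direction, and the smallest FDR of any gene was 0.433 with the block. The first array of each age shared a slide and the second arrays did not; the labels tie the replicate numbers to no shared mice, and arrays of the same number did not deviate together (correlation -0.078). Within the shared slide there is no test, and the slide as a block could not be fitted. Several settings moved the FDR of all genes and not only of the members. The smallest FDR of any gene was 0.095 in the main fit. It was 0.0013 with an offset of 50, 0.0056 with no background correction, 0.0036 with probes above background only and 1.2e-07 with the trend. The counts below are not set against all genes called in the same setting, so a higher count is no stronger result about the members. Members called higher were 8 with probes above background only. Members called lower were 14 with an offset of 50, 13 with no background correction, 11 with processed signal and quantile normalization, 23 with probes above background only and 17 with the trend. Of members past 1.5-fold, 1 was lower with an offset of 50 and 5 with processed quantile signal. Partners called higher were 6 with probes above background only and 6 with the trend; partners called lower were 5 with an offset of 50, 5 with no background correction, 1 with processed 75th percentile signal, 5 with processed quantile signal, 10 with probes above background only and 11 with the trend. The member median was -0.070 with an offset of 50, -0.070 with no background correction, -0.051 and -0.067 with processed 75th percentile and quantile signal, and -0.126 to -0.054 with 1 array left out. Signs of small changes turned. Dcc became -0.0060 with processed quantile signal and -0.088 with probes above background only and with the most intense probe. Epha10 became 0.0054 and 0.0064 with offsets of 16 and 50, 0.036 with no background correction, 0.22 with processed 75th percentile signal, 0.014 with 75th percentile scaling, 0.16 with probes above background only and with the most intense probe, and -0.15 to 0.15 with 1 array left out. Epha6 became -0.0060 and -0.0087 with offsets of 16 and 50, -0.0052 and -0.37 with processed 75th percentile and quantile signal, and -0.28 to 0.32 with 1 array left out. Robo1 became -0.0029 with no background correction, -0.025 with probes above background only and with the most intense probe, and -0.12 to 0.19 with 1 array left out. Ntn1 became 0.020 and 0.017 with processed 75th percentile and quantile signal, Unc5b 0.0070 with 75th percentile scaling, and with the most intense probe Nrp2 became 0.19 and Sema5b 0.040. With 1 array left out, Kirrel3 ranged from -0.15 to 0.0013, Nrp2 from -0.081 to 0.016, Ntng1 from -0.069 to 0.28, Plxnc1 from -0.44 to 0.23, Sema4c from -0.071 to 0.15, Sema5b from -0.25 to 0.057, Sema6a from -0.013 to 0.032 and Unc5b from -0.075 to 0.061. The cause was not tested.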

Other observations

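Of the 36 members with more than 1 probe, 14 had probes that differed in direction. For Dcc, the receptor that attracts axons to netrin-1, 3 of 4 probes were not above background on any array, while the fourth read 160308 and 149846 in young adult and 146641 and 145031 in aged mucosa, so that its mean level over probes rests on probes of very unlike brightness. For Plxnb3, a plexin for class 5 semaphorins, 1 probe read 107 and 148 in young adult and 329 and 106 in aged mucosa, and the other 989 and 965 against 1037 and 1025.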
